A study of Arabidopsis thaliana with 116 samples.

Results

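Shoots of Arabidopsis thaliana seedlings kept on salicylic acid (SA) for 48 h were compared with shoots of seedlings kept as long on hormone-free medium. The comparison rests on 6 of the 116 libraries of the series, 3 with SA and 3 controls, selected by tissue, treatment and time as labelled, and covers all genes of the count table. Both groups were wild-type plants of strain Col-0, grown under long days on vertical agar for 5 days and then moved on their nylon mesh. The SA group went onto the same medium with 150 µM SA, and the control group onto the medium alone. Shoot was cut from root at harvest, and mRNA was sequenced as stranded paired libraries. Of the replicates collected per group, 3 were sequenced, and the labels call them biological. Shoots at 24 h and roots at 48 h, each with SA and control groups of 3 libraries from the same plant material and medium, serve below as comparisons.

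SA is a phenolic hormone best known from resistance to biotrophic pathogens. It is bound by NPR1 and its relatives, which act on TGA transcription factors at defence promoters; in the NPR1 branch this leads to pathogenesis-related (PR) proteins, WRKY factors and secretion of antimicrobial proteins. Plants treated with SA or with constitutive SA responses are commonly small, and defence and growth are often described as being traded against each other.

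The SA libraries held 26829749, 38826556 and 10527129 counts, and the control libraries 34065459, 38650425 and 34693822, so SA replicate 3 was the shallowest of the 6. Libraries of the whole series held 46189 to 221250466 counts, with a median of 30483879. Within the SA group, log2 CPM values correlated across 14904 genes at r = 0.987 to 0.993, within the control group at 0.984 to 0.993, and between the groups at 0.72 to 0.746. CPM, the unit used throughout, is a gene's count relative to the scaled library size. Values per library are listed for replicates 1, 2 and 3 in that order. The 10 genes with the highest counts took 5.28 to 5.43% of the counts of an SA library and 8.50 to 9.44% of a control library. Genes of the chloroplast genome took 0.0646 to 0.0936% with SA and 0.0518 to 0.0631% in the controls.

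At 48 h the shoot transcriptome differed widely between the groups. A gene was called where the adjusted p (Benjamini-Hochberg) of edgeR's quasi-likelihood test was below 0.05, which held for 13816 of 21263 genes (65.0%). With SA, 6814 genes were higher (32.0%) and 7002 were lower (32.9%). Most of these changes were small: 6515 called genes differed at least 2-fold (30.6%), 3134 higher and 3381 lower. Large changes ran mainly upward, with 769 genes at least 8-fold higher (3.62%) and 228 at least 8-fold lower (1.07%). At 32-fold or more, 266 genes were higher and 33 lower. The median log2 fold change over all genes was -0.0071, and scaling by the size factors of DESeq2 shifted it by 0.12 to 0.11. All changes below are relative to the TMM scaling used in the test, and the gene lists are to be read against the shares and the median given here.

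Among genes averaging 5 CPM or more, the 8 that rose most were near silence or undetected in the control shoots. PR1 (AT2G14610), the classical marker of SA-dependent resistance, had 12577, 12392 and 11352 CPM in SA libraries, against 1.49, 0.11 and 2.73 CPM in control libraries; it alone took 1.36 to 1.51% of all counts of an SA library. The log2 fold change, SA over control, was 13.05 (SE 0.73, adjusted p = 3.89e-20). SE here and below is the size of the log2 value divided by the square root of its F statistic. For genes with few counts in a group it does not cover the uncertainty of the fold. PCR1, annotated as PLANT CADMIUM RESISTANCE 1, had 2143, 2061 and 1994 CPM with SA, against 0.537, 0.495 and 1.79 CPM in control shoots (log2 fold change 11.11, SE 0.44, adjusted p = 3.54e-25). TAT3, a tyrosine aminotransferase, had 317, 282 and 278 CPM with SA, against 0.149, 0.193 and 0.0911 CPM in control shoots (log2 fold change 10.94, SE 0.43, adjusted p = 3.54e-25). The other 5 had no count in any of the 3 control libraries, so that a lower bound of their rise was computed against 3 counts per library. AT2G44240, encoding a DUF239 protein, was at 66.1, 59.2 and 42.5 CPM in SA libraries, against 0, 0 and 0 CPM in control libraries and thus at least 638-fold higher. The mannose-binding lectin gene AT1G52130 was at least 344-fold higher, the copper transport family gene AT5G52710 at least 240.4-fold, the uncharacterized AT1G15610 at least 159-fold and the carboxypeptidase gene scpl14 (AT3G12230) at least 144-fold. Each of these 5 was between 12.2 and 66.1 CPM in every SA library.

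Among genes averaging 5 CPM or more, the 8 that fell most were expressed in every control library. TIP2;1 (AT3G16240), a water channel of the vacuolar membrane, had 4.54, 4.64 and 6.72 CPM in SA libraries, against 224, 339 and 309.8 CPM in control libraries (log2 fold change -5.82, SE 0.35, adjusted p = 3.14e-19). On the opposite strand, AT3G03265 overlaps 445 nt of TIP2;1 and PnsB3 120 nt. PnsB3 itself held 1842 counts over the SA libraries and 10639 over the controls. AT4G02850, of the phenazine biosynthesis PhzC/PhzF family, had 0.87, 0.504 and 0.633 CPM with SA, against 31.9, 33 and 35.9 CPM in control shoots (-5.67 on the log2 scale). AT2G27402, whose product is annotated as plastid transcriptionally active protein, had 6.68, 7.84 and 8.07 CPM with SA, against 240.4, 232 and 241 CPM in control shoots (-4.99). MLP28, a MLP-like protein, had 7.27, 3.92 and 7.59 CPM with SA, against 157, 168 and 177 CPM in control shoots (-4.78). The other 4 were MYB29, described with the glucosinolates, AT5G01015 (-4.50 on the log2 scale), the lipid transfer protein gene AT5G48490 (-4.47) and the sugar transporter gene SFP2 (-4.46). In all 16 genes the SA and control libraries did not overlap, which the choice of genes had required. Ranking by fold change above a minimum mean level also favours genes near silence in 1 group and expressed in the other.

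**Figure D1:**
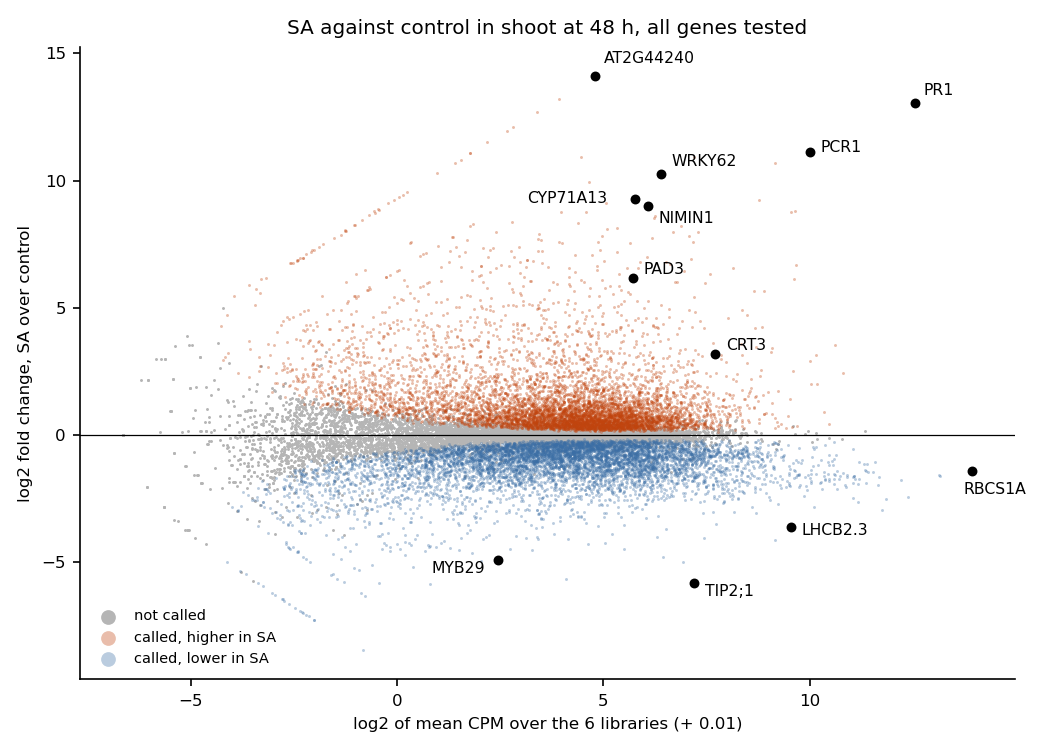
Each point is 1 of 21263 genes; the x axis is the log2 of its mean CPM over the 6 libraries plus 0.01, the y axis its log2 fold change, SA over control. Genes called higher with SA are red, genes called lower are blue and the rest grey. PR1 lies at 13.05 and TIP2;1 at -5.82. Genes called at least 8-fold higher (769, log2 of 3 or more) outnumber those called at least 8-fold lower (228). The rising line of points at the upper left holds genes without a count in the controls, whose fitted fold change is no bound.

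The 250 bases upstream of the gene start are shown for TIP2;1, which had the largest fall among genes averaging 5 CPM or more, and for NIMIN1, an NPR1-binding repressor that rose most among the SA perception genes. They were read from the TAIR10.1 assembly and its RefSeq gene starts; the counts were made on TAIR10, which has the same nuclear chromosomes. The positions were chr1:498540-498789 (minus strand) for NIMIN1 and chr3:5505110-5505359 (plus strand) for TIP2;1, and no other gene lay in these windows. Both strands were searched for TTGAC, the core of the W-box bound by WRKY factors, for TGACG, the core of TGA factor sites, and for CACGTG, the G-box; TTGAC and TGACG can overlap in TTGACG. These windows hold no match and stand for neither the risen nor the fallen genes, whose shares follow the sequences.
NIMIN1: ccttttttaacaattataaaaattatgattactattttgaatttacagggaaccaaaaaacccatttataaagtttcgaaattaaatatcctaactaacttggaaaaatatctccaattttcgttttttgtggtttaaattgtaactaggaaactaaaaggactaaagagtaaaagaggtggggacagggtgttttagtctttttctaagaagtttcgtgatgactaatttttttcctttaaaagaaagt
TIP2;1: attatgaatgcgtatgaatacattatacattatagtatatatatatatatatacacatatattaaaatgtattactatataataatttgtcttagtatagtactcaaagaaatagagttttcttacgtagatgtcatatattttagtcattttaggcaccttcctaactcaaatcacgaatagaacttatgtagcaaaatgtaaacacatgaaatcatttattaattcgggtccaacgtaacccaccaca
Among the 769 genes called at least 8-fold higher, 63.2% had a TTGAC in this window, among the 228 called at least 8-fold lower 37.28%, and among all 21131 tested genes with a window 45.48%. The shares for TGACG were 24.58%, 15.35% and 19.39%, and for CACGTG 6.11%, 4.39% and 7.48%. Of the 19 WRKY genes described below, 14 held TTGAC, as did 15 of 41 genes of light harvesting and the photosystems. A match of letters is not a binding site, and a missing one says nothing about a factor's binding elsewhere.

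Genes of PR proteins rose together, 5 of 6 being called higher with a median log2 fold change of 4.99, in a list that includes PR1. BG3 (AT3G57240), a beta-glucanase, had 69.6, 63.9 and 53.3 CPM in SA libraries, against 0.567, 0.11 and 0.152 CPM in control libraries (log2 fold change 7.82, SE 0.40, adjusted p = 2.17e-21). PR2 (AT3G57260), the marker beta-glucanase of SA responses, had 67.3, 72.8 and 82.3 CPM with SA, against 2.95, 2.04 and 1.82 CPM in control shoots (log2 fold change 5.03, SE 0.29, adjusted p = 7.06e-20). PR5, a thaumatin-like protein, had 182, 184 and 195 CPM with SA, against 6.59, 6.46 and 5.13 CPM in control shoots (log2 fold change 4.94, SE 0.25, adjusted p = 1.04e-21). In these genes every SA library lay far above every control library. PR4, a hevein-like chitin-binding protein, differed less (0.85, adjusted p = 0.000119), and the basic chitinase gene PR3, which is usually counted with jasmonate and ethylene responses, was not called (0.23, adjusted p = 0.246).

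Genes of SA perception were called throughout. Of 14 genes of NPR proteins, NIMIN repressors and TGA factors, 12 were higher and 2 lower, with a median of 1.54. NIMIN1 (AT1G02450) had 128, 146 and 131 CPM in SA libraries, against 0.0596, 0.165 and 0.577 CPM in control libraries (log2 fold change 8.99, SE 0.41, adjusted p = 5.85e-23). NIMIN2 had 213, 189.8 and 176 CPM with SA, against 1.85, 1.49 and 2.12 CPM in control shoots (log2 fold change 6.73, SE 0.21, adjusted p = 2.21e-28). Both encode proteins that bind NPR1, and NIMIN1 is known to dampen the induction of PR1. The related NIMIN3 was lower (-0.79, adjusted p = 3.58e-05). Among the receptors, NPR3 had 339.6, 402 and 391 CPM with SA, against 21.4, 32.6 and 36.8 CPM in control shoots (log2 fold change 3.64, SE 0.23, adjusted p = 3.11e-18). The levels of NPR1 were 75.8, 82.4 and 79.6 CPM with SA, against 25.2, 26.8 and 27 CPM in control shoots (log2 fold change 1.59, SE 0.12, adjusted p = 3.05e-15), and those of NPR4 rose similarly in log2 terms (1.65, adjusted p = 8.01e-11). AT4G26120, annotated as an ankyrin repeat and BTB/POZ domain protein, was at 3.04 (adjusted p = 4.12e-18). The TGA factors, which recruit NPR1 to DNA, moved little by comparison: 6 of 7 rose, from 0.38 for TGA6 to 2.00 for TGA3, and TGA4 fell (-0.47, adjusted p = 0.01). Under both DESeq2 settings only 1 of the 2 lower genes was called.

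SA is made mainly through isochorismate in the plastid, and to a lesser part from phenylalanine. Of 11 genes of synthesis and its regulation, 7 were higher, 2 were lower and 2 were not called, with a median of 1.06. EDS5 (AT4G39030), which exports isochorismate from the plastid, had 79.5, 75.7 and 85.9 CPM in SA libraries, against 6.08, 6.38 and 6.59 CPM in control libraries (log2 fold change 3.66, SE 0.22, adjusted p = 3.68e-19). PBS3, which conjugates isochorismate to glutamate, had 141, 141 and 149.8 CPM with SA, against 7.6, 6.71 and 8.56 CPM in control shoots (log2 fold change 4.24, SE 0.54, adjusted p = 3.86e-09). The main isochorismate synthase gene ICS1 rose less (1.72, adjusted p = 4.93e-11), and its paralog ICS2 fell (-0.85, adjusted p = 0.000583). A related pair of transcription activators of this branch was higher. SARD1 had 257, 285 and 329 CPM with SA, against 4.14, 9.62 and 16.6 CPM in control shoots (log2 fold change 4.84, SE 0.41, adjusted p = 3.11e-14). CBP60g had 148, 156 and 193 CPM with SA, against 13.7, 23.5 and 23.4 CPM in control shoots (log2 fold change 3.04, SE 0.21, adjusted p = 8.67e-17). The control libraries of SARD1 varied widely among themselves, and every SA library was far above them. Of the phenylalanine ammonia-lyases, PAL1 (0.36, adjusted p = 0.0768) and PAL2 (0.18, adjusted p = 0.394) were not called, PAL4 rose (0.89, adjusted p = 2.94e-06) and PAL3 fell (-1.44, adjusted p = 4.34e-11).

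Genes of SA turnover, whose enzymes modify SA or release it from its methyl ester, were also mostly higher. Of 10 such genes 9 were tested; 6 were higher, 1 was lower and 2 were not called, with a median of 2.19. DLO1 (AT4G10500), an SA 3-hydroxylase, had 81.6, 80.1 and 77.5 CPM in SA libraries, against 0.0894, 0.22 and 0.546 CPM in control libraries (log2 fold change 8.13, SE 0.42, adjusted p = 2.71e-21). The SA 5-hydroxylase DMR6 (AT5G24530), a suppressor of immunity, had 530.1, 493 and 481 CPM with SA, against 18.8, 18.1 and 25 CPM in control shoots (log2 fold change 4.6, SE 0.24, adjusted p = 3.01e-21). UGT76B1, which glucosylates SA and N-hydroxypipecolic acid, had 979, 923 and 879.8 CPM with SA, against 15, 14.4 and 25.2 CPM in control shoots (log2 fold change 5.67, SE 0.33, adjusted p = 1.19e-19). Of the pair of SA glucosyltransferases encoded side by side, UGT74F2 was higher (2.33, adjusted p = 1.38e-08) and UGT74F1 lower (-1.10, adjusted p = 0.000356). The methyl salicylate esterase genes MES1 (0.23, adjusted p = 0.275) and MES9 (0.26, adjusted p = 0.122) were not called. BSMT1, the SA methyltransferase, had 1 count over the 6 libraries and was not tested.

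The EDS1 hub and the N-hydroxypipecolic acid pathway, which feed systemic resistance, were higher: 11 of 11 genes were called higher, with a median of 2.53. AT3G48080, an alpha/beta-hydrolase gene next to EDS1, had 59.3, 56.7 and 53.5 CPM in SA libraries, against 0.477, 0.688 and 0.729 CPM in control libraries (log2 fold change 6.48, SE 0.28, adjusted p = 7.66e-24). EDS1 had 122, 135 and 147 CPM with SA, against 23.4, 27.7 and 29.7 CPM in control shoots (log2 fold change 2.32, SE 0.15, adjusted p = 3.37e-18). Its partner PAD4 had 122, 135 and 162 CPM with SA, against 5.87, 7.48 and 8.17 CPM in control shoots (log2 fold change 4.28, SE 0.28, adjusted p = 5.84e-18). In the pipecolate pathway, the aminotransferase gene ALD1 had 23.1, 16.8 and 16.6 CPM with SA, against 0.0596, 0.412 and 1.18 CPM in control shoots (log2 fold change 5.10, SE 0.74, adjusted p = 6.27e-08). AT5G52810, an NAD(P)-binding protein gene of the same list, had 192, 178 and 168 CPM with SA, against 16.9, 13.9 and 19.2 CPM in control shoots (log2 fold change 3.43, SE 0.19, adjusted p = 1.92e-20). The monooxygenase gene FMO1 had 15.2, 11.43 and 12 CPM with SA, against 1.1, 0.688 and 1.97 CPM in control shoots (log2 fold change 3.37, SE 0.55, adjusted p = 7.55e-07). The control libraries of ALD1 varied widely among themselves. The helper receptors ADR1, ADR1-L1 and ADR1-L2 were at log2 fold changes of 1.82, 2.53 and 1.94.

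Of 19 genes of WRKY factors, which read the W-box, 19 were higher, where 32.0% of all genes were. They had a median of 4.2, and the range ran from 0.64 for WRKY28 to 10.25 for WRKY62. WRKY62 (AT5G01900) had 179.5, 166 and 164 CPM in SA libraries, against 0.119, 0.0825 and 0.212 CPM in control libraries (log2 fold change 10.25, SE 0.28, adjusted p = 7.76e-29). WRKY59 had 62.3, 69.7 and 70.2 CPM with SA, against 0.119, 0 and 0.243 CPM in control shoots (log2 fold change 9.13, SE 0.61, adjusted p = 3.34e-16). WRKY38 had 138, 158 and 156 CPM with SA, against 0.298, 0.138 and 0.789 CPM in control shoots (log2 fold change 8.54, SE 0.38, adjusted p = 1.84e-23). All 3 were nearly off in the controls and uniform across the SA libraries. The same held for WRKY51 with 136, 144 and 153 CPM with SA, against 0.626, 0.578 and 0.82 CPM in control shoots (log2 fold change 7.74, SE 0.28, adjusted p = 2.12e-26). WRKY70, a factor between SA and jasmonate responses, had 639, 713 and 717 CPM with SA, against 8.44, 45.4 and 25.6 CPM in control shoots (log2 fold change 4.70, SE 0.46, adjusted p = 2.25e-12). Its control libraries varied more than its SA libraries relative to their mean.

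Receptor genes at the cell surface rose broadly. Of 23 genes of cysteine-rich receptor-like kinases (CRKs), most of them in a cluster on chromosome 4, 20 were higher and 2 lower with a median of 3.75. CRK7 (AT4G23150) had 73.2, 65.1 and 64.9 CPM in SA libraries, against 0.238, 0.275 and 0.212 CPM in control libraries (log2 fold change 8.11, SE 0.41, adjusted p = 9.69e-22). CRK4 had 71.7, 83.2 and 86.9 CPM with SA, against 0.507, 0.412 and 0.729 CPM in control shoots (log2 fold change 7.2, SE 0.31, adjusted p = 4.25e-24). CRK23 and CRK39, in the same list, were at log2 fold changes of 6.60 and 6.04. CRK21 (-0.95, adjusted p = 1.8e-13) and CRK41 (-0.67, adjusted p = 0.00967) fell, and CRK10 was not called (-0.19, adjusted p = 0.621). In the list of immune receptors and their relays, 16 of 18 were higher and PEPR1, which binds Pep peptides, was lower (-0.83, adjusted p = 1.61e-05), with a median of 1.12. MPK11, a MAP kinase, had 34.8, 38.5 and 43.8 CPM with SA, against 0.954, 0.935 and 1.27 CPM in control shoots (log2 fold change 5.21, SE 0.36, adjusted p = 5.46e-17). FRK1, a flagellin-responsive kinase, had 273, 232 and 191 CPM with SA, against 12, 9.43 and 9.38 CPM in control shoots (log2 fold change 4.50, SE 0.27, adjusted p = 4.52e-19). The next largest rises were those of RLP23, the receptor of an NLP peptide (4.36, adjusted p = 7.14e-19), and of LYK5, a chitin receptor (2.98, adjusted p = 4.22e-13). The flagellin receptor gene FLS2 was at a log2 fold change of 0.83 and its co-receptor gene BAK1 at 0.68.

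Genes of folding and secretion in the endoplasmic reticulum, through which PR proteins are secreted, rose in 17 of 17 cases, with a median of 1.23. They are called folding genes below, although the list includes the regulators TBF1 and bZIP60. CRT3 (AT1G08450), a calreticulin needed for folding of the receptor EFR, had 385, 379 and 374 CPM in SA libraries, against 40.7, 42.1 and 43.1 CPM in control libraries (log2 fold change 3.18, SE 0.12, adjusted p = 1.32e-25). TBF1, a heat-shock-factor-like regulator of the growth-to-defence switch, had 122, 132 and 133 CPM with SA, against 18.9, 19.4 and 19.3 CPM in control shoots (log2 fold change 2.75, SE 0.14, adjusted p = 7.73e-22). The protein disulfide isomerase gene PDIL1-2 had 178, 161 and 164 CPM with SA, against 43.5, 35.4 and 39.7 CPM in control shoots (log2 fold change 2.08, SE 0.12, adjusted p = 4.14e-19). The stress-inducible chaperone gene BIP3 had 13.4, 14.7 and 15.3 CPM with SA, against 3.73, 2.5 and 5.1 CPM in control shoots (log2 fold change 1.94, SE 0.25, adjusted p = 5.17e-09). The constitutive chaperone genes BIP1 and BIP2 were at log2 fold changes of 1.42 and 1.47. In the 4 genes given by library the groups did not overlap, and the spread within each group was small beside the difference.

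**Figure D2:**
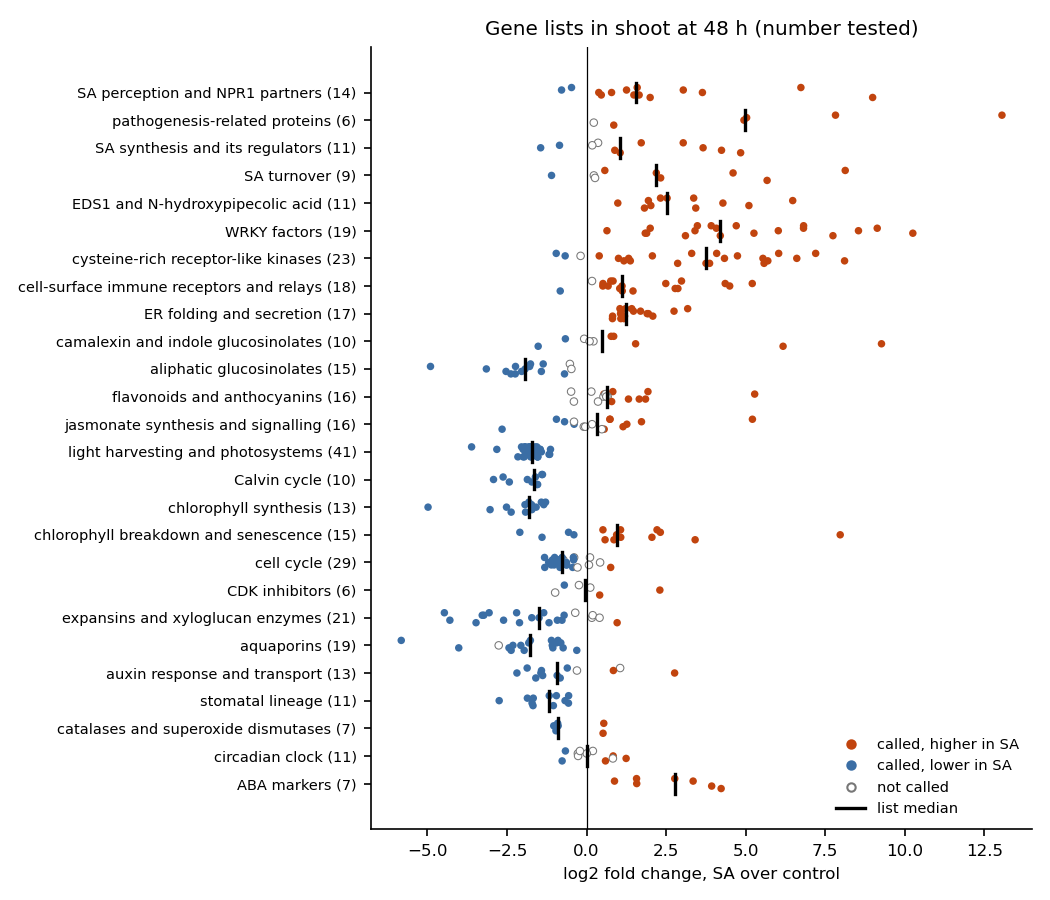
Each row is a list of genes with the number tested; each point is a gene at its log2 fold change, SA over control, filled red where called higher, blue where called lower and open where not called; the bar is the list median. The 19 WRKY factors, 17 folding genes and 11 EDS1 pathway genes lie entirely right of 0, and the 41 light harvesting, 10 Calvin cycle, 13 chlorophyll synthesis and 11 stomatal lineage genes entirely left of it; the leftmost point of chlorophyll synthesis is PORA, whose fitted value is no bound.

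Specialised metabolism split by pathway. The camalexin branch, which makes the main Arabidopsis phytoalexin, was higher at its late steps. CYP71A13 (AT2G30770) had 128, 105 and 94.6 CPM in SA libraries, against 0.209, 0.247 and 0.0607 CPM in control libraries (log2 fold change 9.27, SE 0.47, adjusted p = 1.38e-21). PAD3, the last enzyme, had 120.3, 102 and 91.5 CPM with SA, against 1.25, 1.51 and 1.58 CPM in control shoots (log2 fold change 6.17, SE 0.31, adjusted p = 1.33e-21). CYP71A12, the tandem copy of CYP71A13, was not called (0.22, adjusted p = 0.463); the pair shares a stretch of 387 nt at over 90% identity. Over the list of camalexin and indole glucosinolate genes, 5 of 10 were higher, 2 lower and 3 not called. Among all genes, 32.0% were higher and 32.9% lower. The regulator MYB51 rose (1.54, adjusted p = 1.06e-05) and MYB34 fell (-1.52, adjusted p = 0.00136). Aliphatic glucosinolates, the methionine-derived defence compounds against herbivores, went the other way: 13 of 15 genes fell, where 32.9% of all genes did, 2 were not called, and the median was -1.93. MYB29 (AT5G07690), one of their regulators, had 0.28, 0.219 and 0.87 CPM in SA libraries, against 12.6, 10.2 and 8.56 CPM in control libraries (log2 fold change -4.90, SE 0.50, adjusted p = 9.93e-12). The chain-elongating enzyme gene MAM1 had 22.4, 23.2 and 31.9 CPM with SA, against 139, 127 and 135 CPM in control shoots (log2 fold change -2.38, SE 0.20, adjusted p = 3.46e-14). MYB76, another regulator, and CYP79F1, which makes the aldoximes, were at log2 fold changes of -3.15 and -2.53. The 2 genes not called were MAM3 (-0.52, adjusted p = 0.0534) and SOT17 (-0.48, adjusted p = 0.197).

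Flavonoid and anthocyanin genes had a median of 0.64. Of 16 tested, 8 were higher, where 32.0% of all genes were, and the rest were not called. The count was 5 without SA replicate 2, 4 without control replicate 2, and 11 in the fit blocked by replicate number. The anthocyanin regulator PAP2 (AT1G66390) had 113, 87.3 and 65.2 CPM in SA libraries, against 3.58, 1.9 and 1.37 CPM in control libraries (log2 fold change 5.28, SE 0.42, adjusted p = 6.77e-15). PAP1 had 40.4, 41 and 31.6 CPM with SA, against 16.6, 6.33 and 6.95 CPM in control shoots (log2 fold change 1.93, SE 0.57, adjusted p = 0.00284). The flavonoid 3'-hydroxylase gene TT7 had 197, 189 and 208 CPM with SA, against 74.4, 32.4 and 57.7 CPM in control shoots (log2 fold change 1.85, SE 0.38, adjusted p = 3.6e-05). The flavonol regulator MYB12 had 7.42, 6.22 and 3.32 CPM with SA, against 2.21, 1.68 and 1.64 CPM in control shoots (log2 fold change 1.65, SE 0.35, adjusted p = 5.38e-05). The control libraries of PAP1 and TT7 differed among themselves by more than their SA libraries did. The entry enzyme gene CHS was not called (0.15, adjusted p = 0.664).

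Jasmonate and abscisic acid (ABA) genes were included because both hormones are known to interact with SA. Of 19 jasmonate genes 16 were tested. Of these, 7 were higher, 4 lower and 5 not called, where 32.0% of all genes were higher and 32.9% lower. ERF1 (AT3G23240), an ethylene and jasmonate response factor, was at 1.34, 2.25 and 2.21 CPM in SA libraries, against 0.0596, 0 and 0.0911 CPM in control libraries (log2 fold change 5.21, SE 0.56, adjusted p = 4.85e-11). ORA59, which acts in the same branch, was at 0.186, 0.329 and 0.0791 CPM with SA, against 1.7, 1.4 and 1.37 CPM in control shoots (log2 fold change -2.65, SE 0.39, adjusted p = 1.12e-07), so that these low-level genes moved in opposite directions. The repressor gene JAZ1 rose (1.73, adjusted p = 9.29e-08), as did the storage protein gene VSP1 (1.26, adjusted p = 0.0145), whose call was lost without SA replicate 3 (log2 fold change 1.08) and without control replicate 1 (1.02). The defensin genes PDF1.2A and PDF1.2B and the thionin gene THI2.1, the usual end points of this pathway, had too few counts to be tested. Of 7 ABA marker genes 7 were higher, with a median of 2.77. HAI2 and HAI1, phosphatases of ABA feedback, were at log2 fold changes of 4.23 and 3.93. NCED3 (AT3G14440), the rate-limiting enzyme of ABA synthesis under drought, had 11.3, 10.5 and 12.3 CPM in SA libraries, against 0.775, 1.68 and 0.85 CPM in control libraries (log2 fold change 3.35, SE 0.34, adjusted p = 9.73e-12). RAB18, a dehydrin, had 21.3, 20.3 and 37.6 CPM with SA, against 5.9, 2.92 and 2.61 CPM in control shoots (log2 fold change 2.77, SE 0.49, adjusted p = 3.45e-06). Shoots kept for 48 h on 2 µM ABA were set against the same 3 controls. Their log2 fold changes were 5.80 for HAI2, 5.25 for HAI1, 1.73 for NCED3 and 5.68 for RAB18. The 2 treatments share their controls and differ in dose, and both sets of values are given side by side only.

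Nuclear genes of photosynthesis were lower. Of 41 genes of light harvesting and the photosystems 41 fell, with log2 fold changes between -3.61 and -1.13 and a median of -1.73. LHCB2.3 (AT3G27690), an antenna protein of photosystem II, had 92.7, 105 and 141 CPM in SA libraries, against 1152, 1609 and 1379 CPM in control libraries (log2 fold change -3.61, SE 0.17, adjusted p = 1.43e-22). LHCB1.4 had 209, 279 and 330.1 CPM with SA, against 1243, 2425 and 2105 CPM in control shoots (log2 fold change -2.82, SE 0.28, adjusted p = 5.41e-12). The photosystem I subunit gene PSAN had 331, 384 and 369.9 CPM with SA, against 1388, 1802 and 1654 CPM in control shoots (log2 fold change -2.16, SE 0.22, adjusted p = 5e-12). SA and control libraries stayed apart in all 3. PSBQ2, of the oxygen-evolving complex, had 282, 340.5 and 383 CPM with SA, against 1211, 1519 and 1415 CPM in control shoots (log2 fold change -2.04, SE 0.15, adjusted p = 9.9e-16). Of 10 Calvin cycle genes 10 fell, with a median of -1.66. Of the Rubisco small subunit genes, RBCS2B (AT5G38420) had 755, 840 and 829.8 CPM with SA, against 5988, 6335 and 6078 CPM in control shoots (log2 fold change -2.92, SE 0.17, adjusted p = 7.56e-20). RBCS1A, encoding another small subunit, had 8349, 8721 and 8774 CPM with SA, against 22137, 23237 and 23088 CPM in control shoots (log2 fold change -1.41, SE 0.13, adjusted p = 5.59e-13). RBCS1B and RBCS3B were at log2 fold changes of -2.62 and -2.43. Stretches of these 4 genes are over 90% identical, so that the split of reads between them is uncertain. The fructose bisphosphatase gene HCEF1 was at -1.86.

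Chlorophyll synthesis genes fell in 13 of 13 cases, with a median of -1.81, or -1.77 without PORA. PORA, an oxidoreductase gene of etiolated seedlings, had no count with SA and 10 counts over the 3 controls. That level is below what 3 counts stand for on average over the SA libraries, so no fold is given, and the call was lost without SA replicate 1, SA replicate 2 or control replicate 2. PORB (AT4G27440), a protochlorophyllide oxidoreductase, had 51.5, 65.2 and 71.1 CPM in SA libraries, against 439.7, 488 and 606 CPM in control libraries (log2 fold change -3.03, SE 0.31, adjusted p = 7.11e-12). PCB2, a divinyl reductase, had 41.8, 44 and 39.7 CPM with SA, against 243, 222 and 255 CPM in control shoots (log2 fold change -2.52, SE 0.13, adjusted p = 5.16e-21). CHLI2, a magnesium chelatase subunit, was at a log2 fold change of -2.37. HEMA1, the first committed enzyme, had 216, 258 and 226 CPM with SA, against 681, 871 and 910 CPM in control shoots (log2 fold change -1.81, SE 0.13, adjusted p = 2.58e-16). The 3 mesophyll markers CAB1 (-1.62), LHCB2.2 (-1.55) and RBCS1A (-1.41) summed to 12658 to 14288 CPM with SA and 34912 to 40562 CPM in the controls. They are themselves members of the light harvesting and Calvin cycle lists above, and thus no separate measure of mesophyll. The epidermis markers ATML1 (-1.33, adjusted p = 7.96e-19) and FDH (-1.29, adjusted p = 4.27e-17) also fell, as did 2 of 3 guard cell markers, MYB60 (-1.63) and AT1G22690 (-1.62), while the phloem markers SUC2 (-0.013, adjusted p = 0.939) and APL (-0.041, adjusted p = 0.792) were not called. Markers of root, from which the shoots had been cut, summed to 13.8 to 16.9 CPM with SA and 13.5 to 15.3 CPM in the controls over 10 genes. Fitted to the libraries compared alone, 3 of the root markers were called lower. In bulk shoots, fewer cells of a type and less RNA per cell cannot be told apart. The part of cell type shares in the falls was not tested.

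Genes of chlorophyll breakdown and senescence were called in 15 of 15 tested cases, 11 higher and 4 lower. Their log2 fold changes lay between -2.10 and 7.97, with a median of 0.94. SAG13 (AT2G29350), a senescence-associated dehydrogenase that also responds to pathogens, had 354, 320.5 and 266 CPM in SA libraries, against 1.25, 0.935 and 1.58 CPM in control libraries (log2 fold change 7.97, SE 0.41, adjusted p = 3.31e-21). NAP, a NAC factor of leaf senescence, had 14.8, 28.8 and 25.6 CPM with SA, against 1.25, 2.15 and 3.1 CPM in control shoots (log2 fold change 3.41, SE 0.50, adjusted p = 9.33e-08). SGR2, a STAY-GREEN protein, had 3.2, 3.33 and 3.08 CPM with SA, against 0.775, 0.55 and 0.607 CPM in control shoots (log2 fold change 2.32, SE 0.24, adjusted p = 1.68e-11). The groups did not overlap in any of these 3. SAG21, a late embryogenesis abundant protein, had 417, 473 and 498 CPM with SA, against 74.2, 107 and 118 CPM in control shoots (log2 fold change 2.21, SE 0.21, adjusted p = 8.37e-13). SAG12, the protease gene that marks developmental senescence, had no count in any of the 6 libraries. Of the catabolic enzymes, the chlorophyll b reductase genes NYC1 (-0.40, adjusted p = 0.00384) and NOL (-1.40, adjusted p = 5.87e-18) were lower, and PPH (0.86, adjusted p = 3.39e-10) and PAO (0.51, adjusted p = 2.1e-05) were higher.

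**Figure D3:**
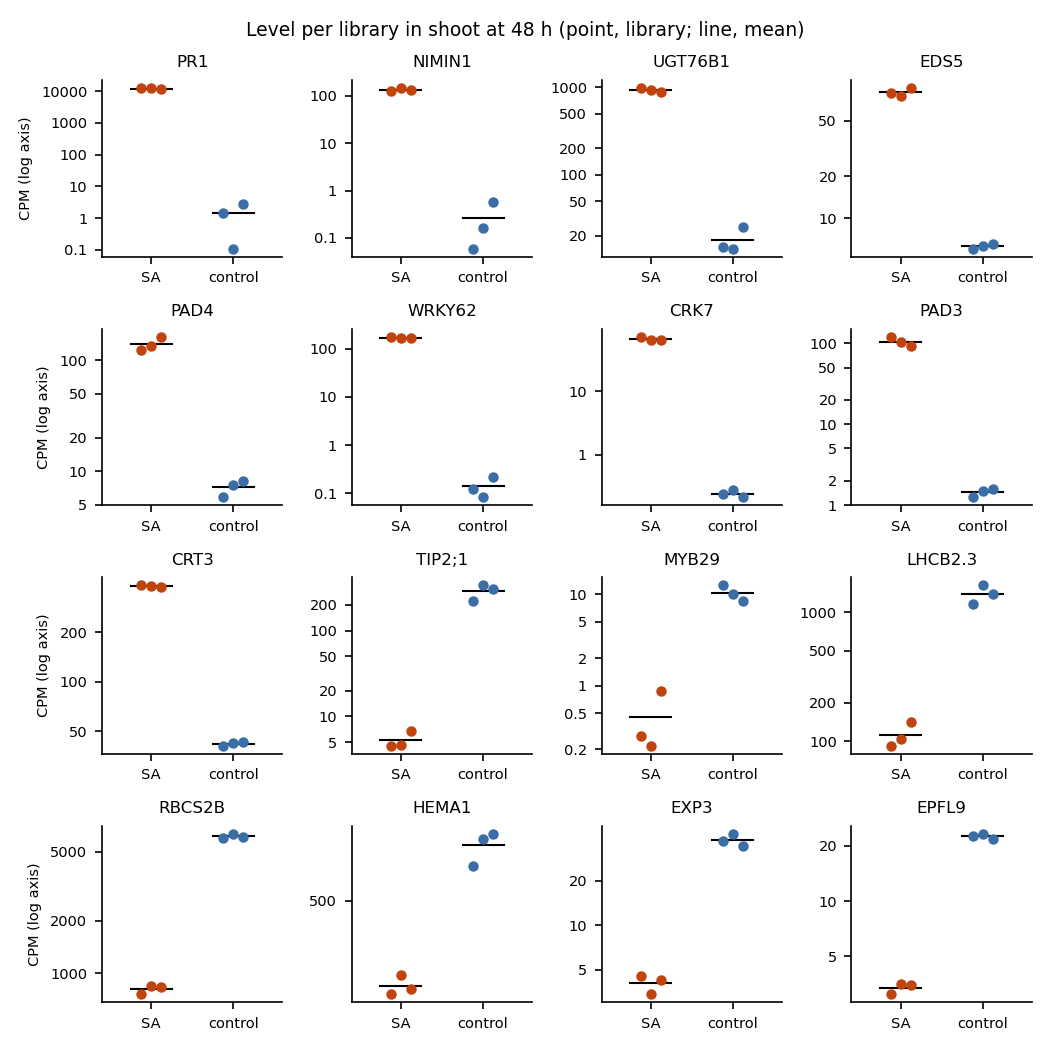
CPM on a log axis in each of the 3 SA (red, left) and 3 control (blue, right) shoot libraries at 48 h for 16 genes; the line is the mean. PR1 lies between 11352 and 12577 CPM with SA and between 0.11 and 2.73 CPM in the controls, and RBCS2B between 755 and 840 CPM with SA and between 5988 and 6335 CPM in the controls; in none of the 16 do the groups overlap.

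Genes of cell expansion and division were lower. Of 21 expansins and xyloglucan enzymes, which loosen the cell wall, 16 fell and 1 rose, with a median of -1.49. XTH4 (AT2G06850) had 29.9, 31.3 and 44.8 CPM in SA libraries, against 347, 425 and 396 CPM in control libraries (log2 fold change -3.47, SE 0.16, adjusted p = 1.37e-22). XTH8 had 2.02, 1.84 and 2.69 CPM with SA, against 19.4, 20.7 and 20.7 CPM in control shoots (log2 fold change -3.28, SE 0.25, adjusted p = 1.4e-15). The low-level genes XTH17 and XTH15 were at log2 fold changes of -4.47 and -4.29. Genes of aquaporins, the water channels that serve cell enlargement, fell in 18 of 19 cases with a median of -1.77. TIP2;1 is described above. The tonoplast channel gene TIP1;1 had 8.64, 9 and 10.05 CPM with SA, against 137, 159 and 149 CPM in control shoots (log2 fold change -4.02, SE 0.15, adjusted p = 2.12e-26). TIP1;2 had 79.1, 80.3 and 114 CPM with SA, against 413, 498 and 500.5 CPM in control shoots (log2 fold change -2.37, SE 0.18, adjusted p = 5.3e-16), and TIP4;1 was at a log2 fold change of -2.44, adjusted p = 0.00161.

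Of 29 cell cycle genes 22 fell and 1, CDKA;1 (0.76, adjusted p = 1.31e-07), rose, with a median of -0.79. The median fold change was nearer to 0 than those of the wall and photosynthesis lists. The cytokinesis gene KNOLLE had 16.6, 17.6 and 18.9 CPM with SA, against 48.3, 41.2 and 42.9 CPM in control shoots (log2 fold change -1.32, SE 0.22, adjusted p = 1.02e-06). CYCD3;2, a cyclin of cell cycle entry, had 28.8, 30.9 and 29.1 CPM with SA, against 71.1, 65.9 and 66.1 CPM in control shoots (log2 fold change -1.19, SE 0.089, adjusted p = 7.21e-16). The cyclin genes CYCB1;3 and CYCA2;3 were at log2 fold changes of -1.31 and -1.11. The meristem and primordium genes STM (-1.18, adjusted p = 1.62e-05) and ANT (-1.15, adjusted p = 3.24e-10) fell beside them, KNAT1 was not called (-0.081, adjusted p = 0.709), and the part of meristem size in these falls was not tested. Among 6 inhibitors of cyclin-dependent kinases, SMR5 (2.3, adjusted p = 2.1e-06) and KRP1 (0.41, adjusted p = 0.0497) were higher and KRP2 (-0.70, adjusted p = 2.12e-05) lower, and the call of KRP1 was lost with no filter on low counts and without SA replicate 1, SA replicate 2, control replicate 1 or control replicate 3, at log2 fold changes between 0.36 and 0.47.

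Of 13 auxin response and transport genes, 9 fell and 2 rose, with a median of -0.92. One of the rises was that of GH3.3, which conjugates auxin to amino acids, with 45, 39.9 and 59.2 CPM with SA, against 8.08, 6.08 and 6.92 CPM in control shoots (log2 fold change 2.77, SE 0.19, adjusted p = 2.32e-17). The early response genes IAA3 (-2.19, adjusted p = 1.69e-15), IAA1 (-1.87, adjusted p = 7.37e-08) and IAA5 (-1.60, adjusted p = 0.0323) fell. The call of IAA5 was lost with the DESeq2 test and without SA replicate 2, SA replicate 3 or control replicate 2; without control replicate 2 its log2 fold change was -0.53. The stomatal lineage fell in 11 of 11 genes, with a median of -1.17. With the DESeq2 test 8 of the 11 were called lower. EPFL9 (AT4G12970), the mesophyll signal that promotes stomata, had 3.11, 3.52 and 3.48 CPM in SA libraries, against 22.6, 23.2 and 21.9 CPM in control libraries (log2 fold change -2.75, SE 0.20, adjusted p = 1.26e-16). MUTE, a factor of guard mother cells, was at a log2 fold change of -1.86, the polarity gene BASL at -1.71 and the protease gene SDD1 at -1.68. In the xylem, the cellulose synthase gene IRX3 fell (-1.09, adjusted p = 2.2e-05); XCP1 passed narrowly (-0.42, adjusted p = 0.0484) and lost its call without any one of the 6 libraries, at -0.48 to -0.33, and with either DESeq2 setting, at -0.30.

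Of 7 catalase and superoxide dismutase genes, 5 were lower and 2 higher. CAT2 (AT4G35090), the photorespiratory catalase, had 999, 1002 and 921 CPM in SA libraries, against 2030, 2017 and 1929 CPM in control libraries (log2 fold change -1.03, SE 0.11, adjusted p = 9.29e-11). FSD1, a plastid iron superoxide dismutase, had 557, 573 and 539 CPM with SA, against 983, 1123 and 1147 CPM in control shoots (log2 fold change -0.96, SE 0.11, adjusted p = 6.53e-11). CAT3 and CSD2 were at log2 fold changes of -0.95 and -0.91. Of 11 clock genes 3 were higher, 2 lower and 6 not called, where 32.0% of all genes were higher and 32.9% lower. Their median of 0.0053 took both signs over the alternatives. Fitted to the libraries compared alone, 5 were lower. ELF4 (1.24, adjusted p = 5.24e-09) and TOC1 (0.84, adjusted p = 4.44e-07) were higher, and LUX (-0.77, adjusted p = 4.33e-05) and CCA1 (-0.67, adjusted p = 0.00399) were lower.

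Set against controls of their own time, the lists moved at different times. In order of time (1, 2, 4, 7, 24 and 48 h), the WRKY median was 0.82, 1.57, 2.54, 4.24, 4.36 and 4.2, and thus changed little after 7 h. The PR median was -0.29, 0.49, 1.12, 1.59, 3.60 and 4.99 at the same times, and the CRK median 0.02, 0.87, 1.53, 1.76, 2.75 and 3.75. The folding genes stood at -0.02, 0.08, 0.60, 1.34, 1.32 and 1.23. Light harvesting stayed within 0.09 of 0 up to 7 h and was at -1.33 at 24 h and -1.73 at 48 h. The Calvin cycle median stood at -0.32 after 7 h, -1.11 after 24 h and -1.66 after 48 h. Aliphatic glucosinolates were at -0.25, -0.46, -0.86, -1.53, -2.39 and -1.93, and the cell cycle at -0.06 after 7 h, -0.69 after 24 h and -0.79 after 48 h. The median over all genes was within 0.02 of 0 at every time. At 7 h, 1 of the 3 control libraries was that with 46189 counts, and at 2 h the library names of the SA and control groups had different prefixes.

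**Figure D4:**
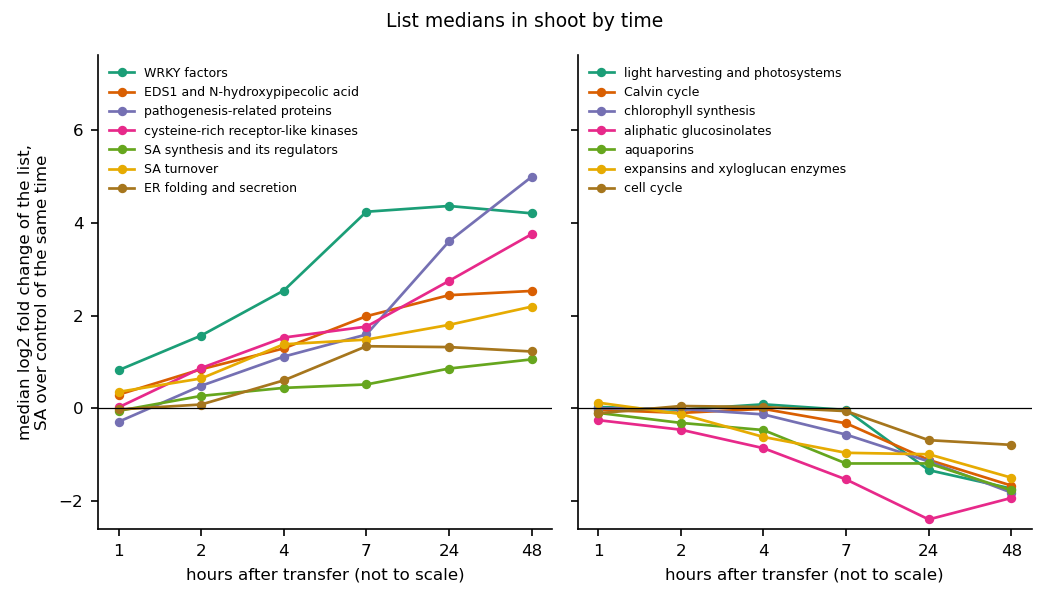
Median log2 fold change of 14 lists in shoot, SA over the control of the same time, over 6 times from 1 to 48 h (evenly spaced, not to scale). At left, WRKY factors are at 4.24 by 7 h while the PR median is 1.59 then and 4.99 at 48 h; at right, light harvesting is at -0.03 at 7 h and -1.73 at 48 h.

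Whether the response at 48 h differed from that at 24 h was tested as a difference of the 2 contrasts, each against its own controls. The test called 913 of 21263 genes (4.29%), 359 with a more positive change at 48 h (1.69%) and 554 with a more negative one (2.61%). In the fit blocked by replicate number the count was 1393, of which 900 were shared with the 913. The count was 604 without control replicate 1 of 48 h, 538 without SA replicate 1 of 24 h and 518 without control replicate 3 of 24 h. All libraries of 48 h had one library-name prefix and all of 24 h another, in both arms. The difference was negative for 6 of 41 genes of light harvesting, 5 of 10 of the Calvin cycle and 4 of 13 of chlorophyll synthesis. Positive differences were called for PAD3 and PR2. PAD3 had 105 ± 14.6 CPM with SA, against 1.45 ± 0.173 CPM in the controls at 48 h and 38.4 ± 9.17 CPM with SA and 3.24 ± 0.471 CPM in the controls at 24 h (SD, n = 3; log2 difference 2.59, SE 0.39, adjusted p = 1.87e-05). PR2 had 74.2 ± 7.61 CPM with SA, against 2.27 ± 0.6 CPM in the controls at 48 h and 6.76 ± 0.433 CPM with SA and 0.982 ± 0.237 CPM in the controls at 24 h (log2 difference 2.28, SE 0.40, adjusted p = 0.000202).

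In several of the genes with the largest differences the control level moved between the days. FER1 (AT5G01600), an iron-storage ferritin, had 92.9 ± 3.02 CPM with SA, against 522 ± 74.1 CPM in the controls at 48 h and 86.9 ± 7.11 CPM with SA and 96.2 ± 8.57 CPM in the controls at 24 h, when the groups were close (log2 difference -2.34, SE 0.25, adjusted p = 2.04e-08). The SA level was alike on both days, and the control level was higher on the second. ENH1, a plastid rubredoxin, showed the same arrangement, with 86.6 ± 10.9 CPM with SA, against 262 ± 13.2 CPM in the controls at 48 h and 111 ± 28.4 CPM with SA and 105 ± 18.5 CPM in the controls at 24 h (log2 difference -1.68, SE 0.20, adjusted p = 1.92e-07). CAT2 and FSD1 were at log2 fold changes of -0.0067 and 0.24 at 24 h, beside the falls at 48 h given above. MEE3, a MYB-like protein, had 1.23 ± 0.453 CPM with SA, against 11.3 ± 0.872 CPM in the controls at 48 h and 2.9 ± 0.591 CPM with SA and 6.35 ± 0.837 CPM in the controls at 24 h (log2 difference -1.95, SE 0.34, adjusted p = 0.000209). AT4G09250, a SPRY domain gene with a near-identical copy, was not called at 48 h (-0.64, adjusted p = 0.13), and its difference (log2 difference -1.98, SE 0.53, adjusted p = 0.02) lost its call without SA replicate 2 (-1.69) or control replicate 3 (-1.75) of 48 h and without control replicate 2 (-1.86) or 3 (-1.96) of 24 h.

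Control levels also moved in genes with the 4 largest positive differences. bHLH38 (AT3G56970), a transcription factor of iron deficiency, had 25.9 ± 0.932 CPM with SA, against 15.9 ± 6.23 CPM in the controls at 48 h and 18.1 ± 0.389 CPM with SA and 129 ± 30.4 CPM in the controls at 24 h (log2 difference 3.54, SE 0.51, adjusted p = 8.48e-06). AT4G36700, a cupin gene, had 2.86 ± 0.538 CPM with SA, against 4.47 ± 2.96 CPM in the controls at 48 h and 4.04 ± 0.173 CPM with SA and 83.5 ± 29.5 CPM in the controls at 24 h (log2 difference 3.73, SE 0.50, adjusted p = 2.33e-06). AT1G62420, a DUF506 gene, had 7.18 ± 0.132 CPM with SA, against 0.841 ± 0.411 CPM in the controls at 48 h and 3.63 ± 0.472 CPM with SA and 13.1 ± 4.37 CPM in the controls at 24 h (log2 difference 4.95, SE 0.46, adjusted p = 1.63e-09). In these 3 genes the controls were far lower on the second day. AT5G02580, annotated as an argininosuccinate lyase, had 13.3 ± 5.24 CPM with SA, against 0.934 ± 0.266 CPM in the controls at 48 h and 4.08 ± 1.52 CPM with SA and 3.33 ± 1.39 CPM in the controls at 24 h (log2 difference 3.53, SE 0.53, adjusted p = 1.55e-05): here the SA level was higher and the control level lower on the second day. Of the called genes, 784 averaged 5 CPM or more; the SA libraries moved more than the controls between the days in 461 of them and the controls moved more in 323.

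**Figure D5:**
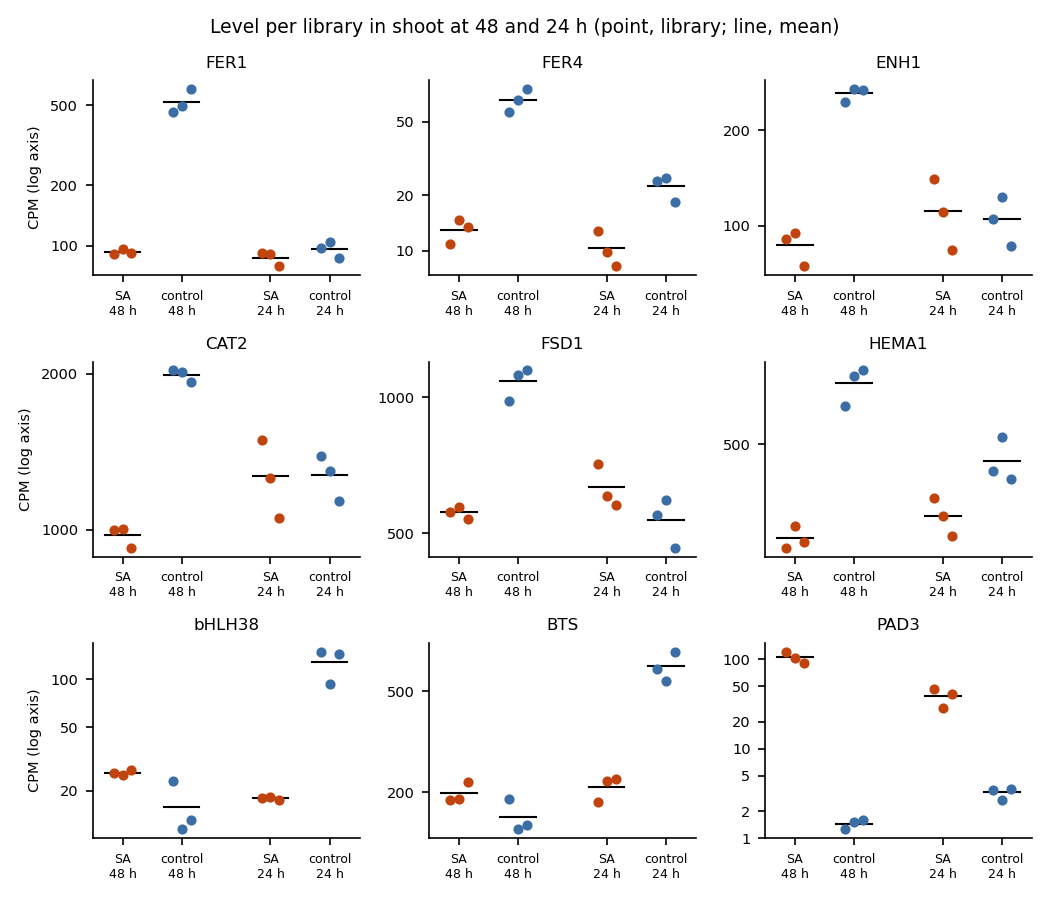
CPM on a log axis in each shoot library of SA (red) and control (blue) at 48 h (left pair) and 24 h (right pair) for 9 genes; the line is the mean. For FER1 the 3 groups other than the 48 h controls average 86.9 to 96.2 CPM and the 48 h controls 522, and for bHLH38 the 24 h controls average 128.8 CPM and the other 3 groups 15.9 to 25.9.

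Finally, the change in shoot was tested against that in root at 48 h in a fit to all 116 libraries. In that fit the CPM values are scaled over both tissues and the median log2 fold change over all genes in shoot is shifted by -0.13 to -0.14. The test called 11238 of 22322 genes (50.3%), 4760 with a more positive change in shoot (21.3%) and 6478 with a more negative one (29.0%). In the folding list 15 of 17 differences were positive and 1 was negative. CRT3 had 439 ± 8.82 CPM with SA and 53.6 ± 1.86 CPM without in shoot, against 44.9 ± 1.53 CPM with SA and 34.6 ± 1.07 CPM without in root (SD, n = 3; log2 difference 2.66, SE 0.13, adjusted p = 2.14e-31). In the SA synthesis list 7 of 11 differences were positive and 2 negative. EDS5 had 93.1 ± 5.1 CPM with SA and 8.12 ± 0.365 CPM without in shoot, against 29.2 ± 0.972 CPM with SA and 25.6 ± 1.11 CPM without in root (log2 difference 3.33, SE 0.25, adjusted p = 2.73e-20). PAD3 had 121 ± 17.3 CPM with SA and 1.85 ± 0.232 CPM without in shoot, against 36.4 ± 4.15 CPM with SA and 16.1 ± 1.79 CPM without in root (log2 difference 4.87, SE 0.32, adjusted p = 3.04e-23). Light harvesting differences were negative for 31 of 41 genes, and chlorophyll synthesis differences for 11 of 13. HEMA1, for example, had 270.4 ± 26.9 CPM with SA and 1049 ± 163 CPM without in shoot, against 70.9 ± 8.86 CPM with SA and 28 ± 1.08 CPM without in root (log2 difference -3.3, SE 0.19, adjusted p = 2.04e-26). For aliphatic glucosinolates 12 of 15 differences were positive, the log2 fold changes being further below 0 in root. MAM1 had 29.9 ± 5.83 CPM with SA and 170.3 ± 5.94 CPM without in shoot, against 2.08 ± 1.21 CPM with SA and 68 ± 4.91 CPM without in root (log2 difference 2.49, SE 0.37, adjusted p = 1.94e-08).

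The genes with the largest tissue differences were often nearly absent from 1 of the groups, so that the fitted size of their difference depends on the prior count of the test and is no bound. LUP5, a terpenoid cyclase, had 25.8 ± 1.47 CPM with SA and 0.141 ± 0.136 CPM without in shoot, against 0.00937 ± 0.0162 CPM with SA and 1.37 ± 0.32 CPM without in root (log2 difference 14.21, SE 0.79, adjusted p = 1.43e-27). Its root libraries with SA held 1 count, and the root ratio of control over SA was 139 with a 95% counting interval of 25.03 to 5508. AT1G76470, a Rossmann-fold protein gene, rose in shoot (6.61) and had 4.54 ± 1.04 CPM with SA and 10.8 ± 0.808 CPM without in root (log2 difference 7.75, SE 0.57, adjusted p = 1.13e-20). TAT3 had 339 ± 25.4 CPM with SA and 0.185 ± 0.0666 CPM without in shoot, against 2.83 ± 1.62 CPM with SA and 0.314 ± 0.159 CPM without in root (log2 difference 7.54, SE 1.19, adjusted p = 7.53e-08). AGP30, an arabinogalactan protein, had 3 counts over the shoot libraries of either group, so that no fold is given there, and 0.0576 ± 0.0276 CPM with SA and 33.2 ± 2.2 CPM without in root (log2 difference 9.12, SE 3.3, adjusted p = 0.0162); the call was lost without SA replicate 1 or 2. In the other direction, the heme oxygenase gene HO4 had 10.2 ± 0.594 CPM with SA and 2.4 ± 0.942 CPM without in shoot; in root it had no count without SA and was at least 163-fold higher with it (log2 difference -10.78, SE 1.37, adjusted p = 3.34e-10). AT5G03350, a legume lectin, had 1805 ± 56.1 CPM with SA and 28 ± 6.15 CPM without in shoot and was at least 326-fold higher in root, where the controls had no count (log2 difference -7.86, SE 1.37, adjusted p = 1.23e-06). STP14, a sugar transporter, fell in shoot (-0.95, adjusted p = 0.0493) and had 8 ± 1.34 CPM with SA and 0.0333 ± 0.0427 CPM without in root (log2 difference -9.28, SE 0.93, adjusted p = 1.94e-14). The glucosyltransferase gene UGT73C1 was not called in shoot (0.30, adjusted p = 0.463) and had 3.46 ± 0.269 CPM with SA and 0.0271 ± 0.047 CPM without in root (log2 difference -7.64, SE 1.02, adjusted p = 1.13e-09). The root controls held 2 counts of STP14 and 1 of UGT73C1, which gives ratios of 333 (92.1 to 2746) and 290 (52.0 to 11453) with the same kind of interval.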

How the data were processed

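Shoot and root of the seedlings were sequenced as stranded, paired-end poly(A) libraries. The authors deposited raw counts per gene for 27655 genes and 116 libraries, made with HISAT2 and featureCounts on TAIR10 per the submitters' processing notes; the strand and multimapper settings are not given in the sources used here. Counts were tested as deposited with edgeR 4.0.16 in R 4.3.3 (filterByExpr, TMM, quasi-likelihood F-test, Benjamini-Hochberg threshold 0.05), with 19 group means over the 58 shoot libraries, or 38 over all libraries for the tissue contrast. The spread is thus shared with the other groups. CPM values are those counts over TMM-scaled library sizes, with pandas 2.3.3 in Python 3.11.15. On simulated counts with 20552 genes tested for the SA against control shoot contrast at 48 h, 95 of 100 genes changed 2-fold, 100 of 100 changed 4-fold and 10 other genes were called. Apart from these changed genes, all simulated libraries shared the profile of the 48 h controls, without replicate effects. The simulation therefore says nothing about scaling or false calls where most genes differ, as they did here. Genes and lists were chosen with earlier results of these data known. Named are up to 4 called members per list with the largest change, those whose role the text needs, the 8 largest rises and falls averaging 5 CPM or more without overlap of groups, and the 4 largest differences each way for time and tissue.

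Alternatives were DESeq2 1.42.0 and its size factors, no low-count filter, fits to the compared libraries alone, without the shallowest shoot control, without 1 library each, and blocked by replicate number. Deviations of same-numbered SA and control libraries correlated at 0.618, 0.273 and 0.395 in 48 h shoots, and different-numbered ones at -0.481 to 0.177. In 24 h shoots the values were 0.543, 0.211 and 0.486, against -0.576 to 0.169. Deviations sum to 0 within a group, so these values depend on each other. Same-numbered shoot libraries thus appear to be paired, least clearly for replicate 2, and the main test leaves this out. In root the same-numbered values were -0.048, 0.134 and -0.01, without such a pattern. Intervals and floors of 3 counts cover counting error only. Counts of overlapping genes may mix where strand was not used; among named genes an opposite-strand neighbour overlaps ADR1-L1, AT1G22690, AT3G48080, AT4G02850, AT5G01015, AT5G03350, BAK1, BSMT1, CAB1, CAT2, CHLI2, CHS, CRK10, CYCA2;3, CYCD3;2, CYP71A13, EDS5, EFR, FER1, FLS2, FRK1, HCEF1, IAA3, IAA5, ICS2, IRX3, KNOLLE, LHCB2.3, LUX, NPR1, PORB, PR3, PSAN, RAB18, RLP23, SARD1, SMR5, TGA4, TGA6, THI2.1, TIP2;1, UGT74F1, UGT74F2, XCP1, XTH15 and bHLH38. A neighbour on the same strand overlaps AT5G52810, FER4, PAO and SAG21. A BLAST 2.17.0 search found a stretch of at least 100 nt at 90% identity or more elsewhere in the genome for AT1G15610, AT2G27402, AT4G09250, CAB1, CRK23, CRK39, CYCA2;3, CYP71A13, CYP79F1, LHCB1.4, LHCB2.2, LUP5, MAM1, MLP28, PAD4, PAP1, PAP2, PDIL1-2, RBCS1A, RBCS1B, RBCS2B, RBCS3B, SAG13, SFP2, VSP1, XTH15, XTH17 and scpl14, whose reads may be split. A gene that the naming rule selects and a further promoter window are not reported here.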

Additional observations from a re-analysis of the deposited data

Results flagged for a closer look

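The change with SA in shoot at 48 h differed from that at 24 h in 913 genes, and from that in root at 48 h in 11238 genes, by the edgeR tests of the differences themselves. Among the named genes of the time contrast, the log2 differences (48 h minus 24 h) were 4.95 for AT1G62420, 3.73 for AT4G36700, 3.54 for bHLH38 and 3.53 for AT5G02580. They were -2.34 for FER1, -1.98 for AT4G09250, -1.95 for MEE3 and -1.68 for ENH1. Between tissues (shoot minus root), they were 14.21 for LUP5, 9.12 for AGP30, 7.75 for AT1G76470 and 7.54 for TAT3. They were -10.78 for HO4, -9.28 for STP14, -7.86 for AT5G03350 and -7.64 for UGT73C1. Library-name prefix and time cannot be told apart in the time contrast.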

How the results depend on the processing

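The counts of genes called at 48 h stayed within 1.5 times under each alternative run: 12764 to 14481 called, 6341 to 8019 higher, 5661 to 7334 lower and 6260 to 6787 at least 2-fold. The highest number of higher genes came with DESeq2 size factors, where 56.9% of called genes were higher in place of 49.3%. The tissue contrast gave 10568 to 12591 genes. The contrast of 48 h with 24 h depended on the processing: 574 genes with the DESeq2 test, 1821 with only the libraries compared, of which 841 were among the 913, and 518 to 877 without 1 library each. With the replicate block it gave 1393; the block moved no other count over all genes by as much as 1.5 times, while called lower genes went to 1 with the block, in place of 0, for flavonoids, to 2, in place of 0, for root markers and to 3, in place of 2, for the clock. Of 1534 single-gene values at 48 h, 1511 kept direction and call, as did 140 of 144 for the time contrast and 142 of 144 for the tissue contrast, and none reversed. List medians that took both signs over the alternatives were those of the clock, CDK inhibitor, root marker and phloem lists. The cause of these dependences was not tested. Depth limits mainly genes with a few counts in a group.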

Other observations

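Gene families outside the lists were counted by their annotated product, a choice made after values were seen. Of 81 genes of TIR-NBS-LRR disease resistance proteins, the intracellular receptors of pathogen effectors, 58 were higher and 3 lower, with a median log2 fold change of 0.73. AT5G41750 averaged 150 ± 51.7 CPM with SA and 6.13 ± 2.07 CPM in the controls (SD, n = 3 each). AT5G45000 averaged 23.2 ± 1.92 CPM with SA and 0.57 ± 0.173 CPM in the controls. AT4G19530 went the other way, with 27.2 ± 6.55 CPM with SA and 106.7 ± 17.9 CPM in the controls. Proteasome subunit genes were higher in 22 of 27 cases, by small amounts: their median was 0.39, and PAA2 averaged 140.2 ± 9.84 CPM with SA and 65.1 ± 3.55 CPM in the controls.

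Of 66 SAUR-like genes, early auxin responders in growing tissue, 37 were lower and 11 higher, with a median of -1.47. AT1G16510 was among the higher ones, at 17.6 ± 1.83 CPM with SA and 5.38 ± 0.887 CPM in the controls. Arabinogalactan proteins of the cell wall were lower in 29 of 43 genes and higher in 4, with a median of -1.31. AGP41 averaged 1.50 ± 0.0684 CPM with SA and 15.6 ± 1.38 CPM in the controls, and AGP5, one of the 4, averaged 37.8 ± 2.64 CPM with SA and 1.21 ± 0.167 CPM in the controls. Of 52 glutathione S-transferase genes 25 were higher and 13 lower, and of 28 mannose-binding lectin genes 12 were higher and 10 lower, where 32.0% of all genes were higher and 32.9% lower. Genes encoded in the chloroplast genome, which poly(A) selection captures poorly, were lower in 14 of 84 cases and higher in 2.

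Iron genes were counted after the time contrast had shown FER1 and bHLH38. Of 11, 3 were called lower at 48 h and 8 were not called. The difference from 24 h was called for 11, 8 positive and 3 negative, where it was called for 4.29% of all genes. FER1, which prompted the list, is among the 11, so that the count is not independent of that contrast. BTS, an iron-binding ubiquitin ligase that restrains the deficiency response, averaged 199 ± 18.2 CPM with SA, against 160 ± 24.4 CPM in the controls at 48 h and 210.3 ± 23.1 CPM with SA and 625 ± 82.7 CPM in the controls at 24 h (log2 difference 1.88, SE 0.22, adjusted p = 1.04e-07). FER4, another ferritin gene, averaged 12.9 ± 1.94 CPM with SA, against 65.9 ± 9.4 CPM in the controls at 48 h and 10.3 ± 2.3 CPM with SA and 22.4 ± 3.41 CPM in the controls at 24 h (log2 difference -1.23, SE 0.20, adjusted p = 7.71e-05). In shoots on ABA, set against the same 48 h controls as SA, the log2 fold change of FER1 was -1.76, beside -2.49 with SA. LURP1 and GRX480, known SA responders outside the lists, were at log2 fold changes of 8.76 and 6.0.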
